A study of Mus musculus with 6 samples.

Results

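Messenger RNA of 9 killer-cell lectin-like receptor genes (Klrg1, Klrk1, Klrd1, Klrc1, Klrc2, Klrb1b, Klrb1c, Klrb1f and Klre1) was measured in group 2 innate lymphoid cells (ILC2s) of the mouse lung. The genes were chosen by name, and all 9 were found among the 39527 genes of the authors' deposited table. ILC2s were sorted from mice that had received IL-33, an alarmin that activates these cells, for 4 days. The KO mice were R5/+ with floxed LKB1 alleles (3 samples), and the WT mice were R5/+ (3 samples). Each sample pooled 3 to 4 mice. The R5 allele was therefore carried by every mouse of both genotypes. The labels do not spell out R5, which in work on ILC2s is the common short name of Red5, a reporter and Cre recombinase placed in the Il5 locus, so that a floxed gene is excised in cells that have used that locus. LKB1 is the kinase encoded by Stk11.

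Killer-cell lectin-like receptors are type II membrane proteins with a C-type lectin-like domain, best known from natural killer (NK) cells and activated T cells. Some carry an inhibitory tyrosine motif in the cytoplasmic tail and recruit phosphatases, while others pair with adaptor proteins that recruit kinases. Most of their genes lie side by side in the NK gene complex, and their ligands are cadherins, class I and class I-like molecules, or other lectin-like proteins of the same complex. On ILC2s, KLRG1 is used as a surface marker of mature and activated cells.

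The authors' comparison gives each gene 1 log2 fold change with its standard error (SE), and the values of single samples were not used here, because their columns match no label. Neither the labels nor the column names say which genotype is the numerator. Stk11, the floxed gene, had a log2 fold change of -1.34 ± 0.30 (SE, adjusted p = 0.000103) in the authors' deposited table. Signs are given as deposited, and a negative value has the sign of Stk11. If Stk11 is lower in KO, as its deletion would make it, negative values are lower in KO and positive values higher in KO. The threshold for a call was an adjusted p of 0.05. Of 14961 genes with an adjusted p, 24.5% were called, 11.0% with a positive and 13.5% with a negative sign, and the median log2 fold change was -0.0056. The 3 samples of a genotype are separate pools per the labels, and the p-values may measure only the spread between such pools. The libraries behind the comparison are not given in the labels or headers.

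Several patterns of level and change were seen among the 9 genes. Klrg1 was abundant and negative by a small amount, Klrb1b and Klrk1 were far less abundant and positive by more than 2-fold, Klrb1f was negative without passing the threshold, and the 5 others were too low to receive an adjusted p. Of the 4 genes with an adjusted p, 2 were positive and 1 negative, against 24.5% of all genes called in either direction. The 4 genes are too few, and were chosen with their values known, for a statement about the family as a whole. Of these 4, 2 log2 fold changes lay above 0 and 2 below, beside 49.6% above 0 among all genes with an adjusted p. The 5 others all lay above 0, as did 69.4% of all genes without an adjusted p. At a threshold of 0.01, 3 of the 4 were called, against 15.8% of the genes tested. With p adjusted over every gene that had a p-value, 3 of 9 were called, against 7.23%. With all values centred on abundant genes, 3 of 4 were called, against 24.4%. Among genes with a mean of at least 100 normalized counts, the 2 members tested were both called (35.5% of all such genes), 1 of them positive (15.5%).

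**Figure D1:**
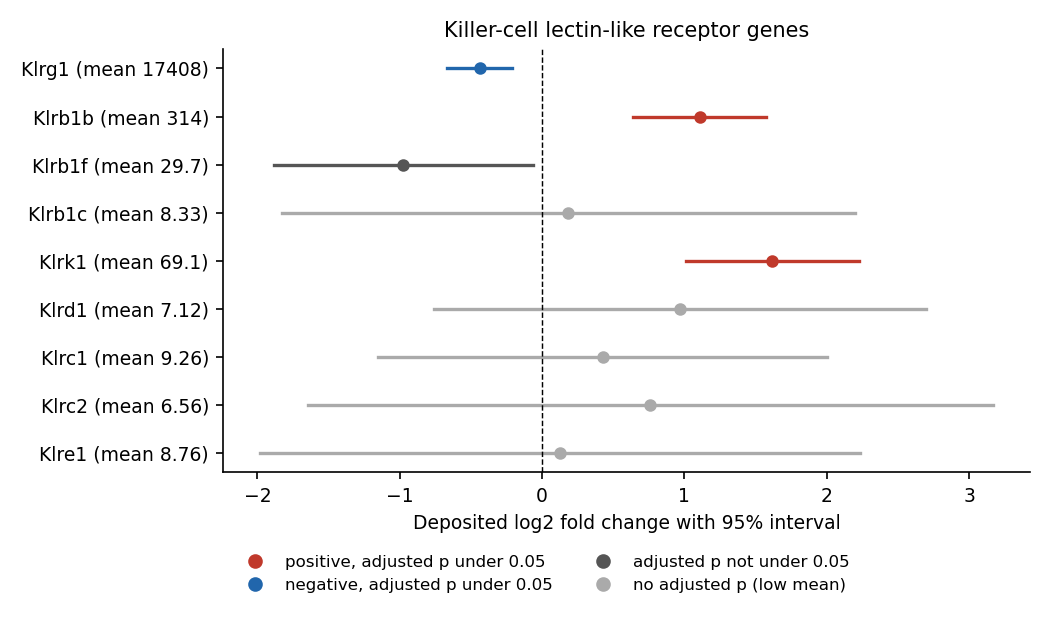
Deposited log2 fold change (horizontal axis) of the 9 genes, with the mean normalized count in brackets. Points are the authors' values and bars the 95% intervals from their standard errors. The interval of Klrg1 lies below 0, those of Klrb1b and Klrk1 lie above 0, and those of the 5 low genes cross 0.

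Klrg1 encodes an inhibitory receptor for E-, N- and R-cadherin. The gene (ENSMUSG00000030114, minus strand, mm10 chromosome 6, 122270596 to 122282882) had a mean of 17408 normalized counts in the authors' deposited table, rank 117 of all genes. This mean is 97.5% of the summed means of the 9 genes. Per kilobase of exon its level was 12311 normalized counts, close to the 11199 of Gata3, the lineage factor of ILC2s. Its log2 fold change was -0.44 ± 0.12 (SE, adjusted p = 0.0017) in the authors' deposited table. The 95% interval ran from -0.67 to -0.21, and the size corresponds to a 1.36-fold difference. Klrg1 was therefore the most abundant of the 9 genes and the one with the narrowest interval, and its deposited change was smaller in size than that of Klrb1b or Klrk1. In bulk samples, fewer cells of a type and less RNA per cell cannot be told apart.

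The call of Klrg1 depended on how gene length was treated. Over 13042 protein-coding genes with an adjusted p, fold changes followed exonic length, when the genes were ranked by length into 4 equal groups. The median was -0.24 for genes of 204 to 2878 bases and 0.15 for genes of 7059 to 123179 bases. Negative calls made up 23.6% of the shortest group, against 6.93% of the longest. Klrg1, with 1414 exonic bases and 1 annotated transcript, belongs to the shortest group, and the fitted trend at its length was -0.29. After removal of the trend its log2 fold change was -0.15, with an adjusted p of 0.405. Of the 4 genes with an adjusted p, 2 were then called, against 23.2% of the genes tested, and 0 were called negative, against 11.7%. Klrb1b and Klrk1 kept their calls, at 1.30 and 1.54. The trend at the length of Klrk1, with 7183 exonic bases, was 0.08, and that at the length of Klrb1b, with 2228, was -0.19.

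**Figure D2:**
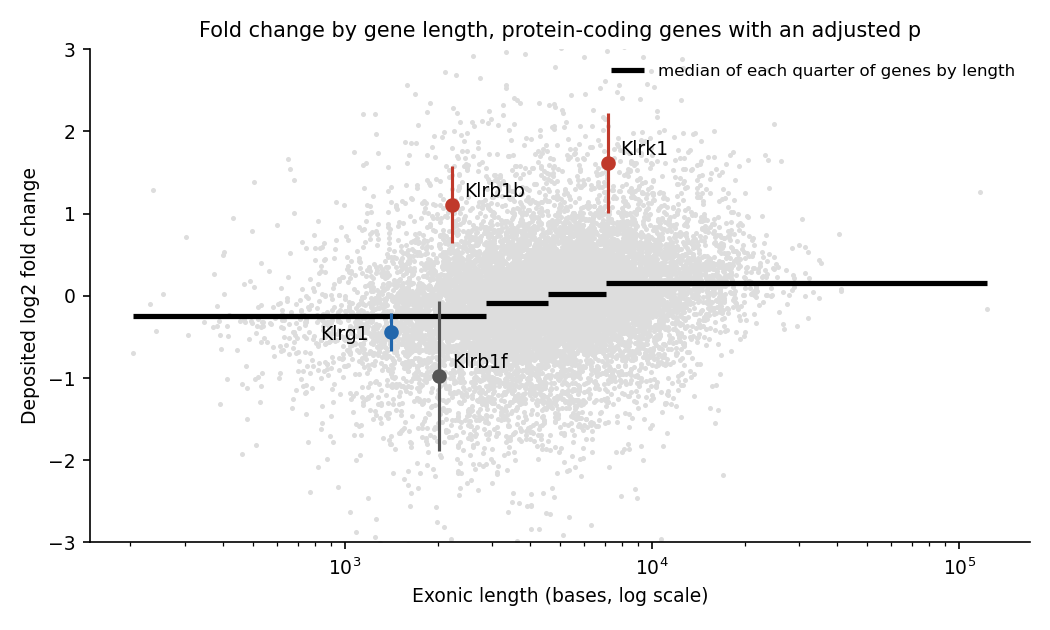
Exonic length in bases (horizontal, log scale) against deposited log2 fold change (vertical) for protein-coding genes with an adjusted p (grey). Black lines are the medians of 4 length groups, and coloured points with 95% intervals are the 4 Klr genes with an adjusted p. The interval of Klrg1 reaches the median of the shortest group, and Klrb1b and Klrk1 lie above the medians at their lengths. Grey points beyond the vertical range are not drawn.

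The Klrb1 genes encode the NKR-P1 receptors, homodimers that recognise lectin-like proteins of the Clec2 family. Klrb1b encodes an inhibitory member whose ligand is the product of Clec2d. Klrb1b (ENSMUSG00000079298, minus strand, mm10 chromosome 6, 128813706 to 128826331) had a mean of 314.2 normalized counts, or 141.04 per kilobase of exon. Its log2 fold change was 1.11 ± 0.24 (SE, adjusted p = 6.56e-05) in the authors' deposited table, with a 95% interval from 0.64 to 1.57 and a 2.15-fold difference. Klrb1f encodes an activating member, with a mean of 29.7 normalized counts. Its log2 fold change of -0.98 ± 0.46 (SE, adjusted p = 0.112) in the authors' deposited table did not pass, although its 95% interval, from -1.89 to -0.07, stayed below 0. Klrb1c encodes the activating receptor used in C57BL/6 mice as the NK cell marker NK1.1. It had a mean of 8.33 normalized counts and a log2 fold change of 0.19 ± 1.03 (SE, p = 0.857) in the authors' deposited table, with no adjusted p. The values of Klrb1b and Klrb1f had opposite signs, and the difference between these genes was not tested.

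Promoters of 7 of the 9 genes were found in the RefSeq table (GRCm38.p6, the assembly named mm10) while Klrg1 and Klrd1 were not matched. Each window holds 250 bases before and 50 bases after an annotated start. Those of Klrb1b (chr6:128826266-128826565, minus strand), Klrb1f (chr6:129045651-129045950, plus strand) and Klrk1 (chr6:129623815-129624114, minus strand) are shown because these genes had the largest deposited fold changes among those with an adjusted p. Capitals mark matches, on either strand, to letters known from the binding motifs of 7 factor families. For the GATA factors the letters were AGATAA. The RUNX family was searched as TGTGGT and the ETS family as AGGAAG. The factors TCF and LEF were searched as CTTTGA, and the AP-1 family as TGACTCA. For the NFAT family the letters were TGGAAA, and for the T-box family GGTGTGA.
Klrb1b: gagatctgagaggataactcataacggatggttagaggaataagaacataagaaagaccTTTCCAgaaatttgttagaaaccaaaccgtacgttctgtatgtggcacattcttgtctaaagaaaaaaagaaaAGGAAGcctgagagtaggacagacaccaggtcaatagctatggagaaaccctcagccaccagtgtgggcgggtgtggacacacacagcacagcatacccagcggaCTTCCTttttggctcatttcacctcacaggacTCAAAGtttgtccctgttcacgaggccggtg
Klrb1f: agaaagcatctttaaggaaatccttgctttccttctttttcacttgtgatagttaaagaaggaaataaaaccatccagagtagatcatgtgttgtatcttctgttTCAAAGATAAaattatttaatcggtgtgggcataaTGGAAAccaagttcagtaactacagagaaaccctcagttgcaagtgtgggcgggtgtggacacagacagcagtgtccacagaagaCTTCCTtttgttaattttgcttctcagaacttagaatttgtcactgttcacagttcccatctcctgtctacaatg
Klrk1: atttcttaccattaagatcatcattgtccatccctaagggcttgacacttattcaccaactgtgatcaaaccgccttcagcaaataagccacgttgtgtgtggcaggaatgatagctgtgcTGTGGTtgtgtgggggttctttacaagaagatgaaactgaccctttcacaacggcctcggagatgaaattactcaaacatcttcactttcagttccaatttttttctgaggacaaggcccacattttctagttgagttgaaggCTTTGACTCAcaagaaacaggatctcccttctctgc

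The Klrb1b window held AGGAAG in 2 places, TGGAAA in 1 and CTTTGA in 1. The Klrb1f window held the same 3 sets of letters once each and AGATAA once, overlapping CTTTGA by 2 bases. The Klrk1 window held TGTGGT once, 129 bases before the start, and CTTTGA and TGACTCA once each, overlapping after the start. No window held GGTGTGA. Among 32851 windows of the same length over the genome, AGGAAG was found in 35.4% and TGGAAA in 21.4%. The letters TGTGGT were found in 16.8%, and CTTTGA in 16% of them. The rarer letters were AGATAA, found in 11.2% of windows, TGACTCA, found in 5.2%, and GGTGTGA, found in 3.98%. The matches describe letters and not binding. Klrb1b and Klrb1f share a run of 22 bases between positions -58 and -37 of Klrb1b and -68 and -47 of Klrb1f (agtgtgggcgggtgtggacaca). A bearing of this run on the values of Klrb1b and Klrb1f, of which only Klrb1b was called, was not tested. The longest run that Klrk1 shares with either is 7 bases.

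Klrk1 encodes NKG2D, an activating receptor for stress-induced class I-like ligands that signals through the adaptor DAP10. The gene (ENSMUSG00000030149, minus strand, mm10 chromosome 6, 129610323 to 129623864) had a mean of 69.1 normalized counts and a level of 9.62 per kilobase of exon. Its log2 fold change was 1.62 ± 0.31 (SE, adjusted p = 5.36e-06) in the authors' deposited table, with a 95% interval from 1.01 to 2.23 and a 3.07-fold difference. It had the largest fold change and the smallest adjusted p of the 4 genes tested. Its interval overlapped that of Klrb1b. The SE of 0.31 was narrower than the median of 0.61 over tested genes with a mean below 100 normalized counts.

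Klrd1 encodes CD94, the partner of the NKG2 chains encoded by Klrc1 and Klrc2. The pair of CD94 with NKG2A, from Klrc1, inhibits, and the pair with NKG2C, from Klrc2, activates, and both recognise the class I-like molecule Qa-1. Klre1 encodes a chain that, in rat, pairs with the products of Klri1 or Klri2 to form an inhibitory or an activating receptor. The means were 7.12 normalized counts for Klrd1, 9.26 for Klrc1, 6.56 for Klrc2 and 8.76 for Klre1 in the authors' deposited table. With Klrb1c they formed the 5 genes below the lowest mean with an adjusted p, 10.5 normalized counts. Their log2 fold changes were 0.97 ± 0.88 for Klrd1, 0.42 ± 0.81 for Klrc1, 0.76 ± 1.23 for Klrc2 and 0.13 ± 1.07 for Klre1 (SE) in the authors' deposited table. Their unadjusted p-values, with that of Klrb1c, lay between 0.272 and 0.907. The 95% interval of Klrd1 ran from -0.76 to 2.70 and that of Klrc2 from -1.65 to 3.17, so that both include 0 and the value of Klrk1. Adjusted over all 39444 genes with a p-value, the lowest adjusted p of the 5 was 0.878.

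**Figure D3:**
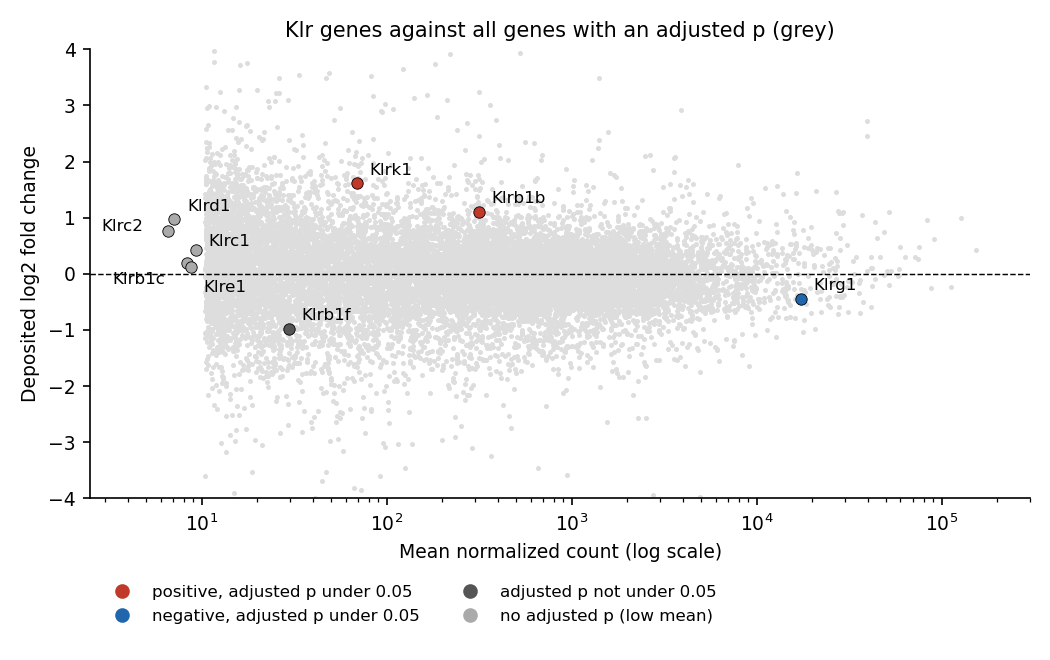
Mean normalized count (horizontal, log scale) against deposited log2 fold change (vertical). Grey points are the genes with an adjusted p and labelled points the 9 Klr genes. Klrg1 stands alone at the abundant end, Klrk1 and Klrb1b lie above 0 at middle means, and the 5 genes without an adjusted p lie left of the grey cloud. Grey points beyond the vertical range are not drawn.

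Per kilobase of exon, the mean level decreased in the order Klrg1, Klrb1b, Klrb1f, Klrk1, Klrd1, Klrc1, Klrb1c, Klre1 and Klrc2, with the last 5 between 5.56 and 1.13 normalized counts. The spread of these levels between samples was not used here, so that neighbours in this order cannot be called different. Exonic length was the union over all annotated transcripts, which can lower the level per kilobase of genes with many transcripts. Klrk1, Klrc2, Klrb1f and Klrd1 had 6 transcripts each, with unions of 7183, 5812, 2025 and 1281 bases. Klrg1, with 1 transcript, had 1414 bases.

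Reads of some of the genes can be shared with close relatives. Of all stretches of 50 bases in the annotated transcripts, 38.6% of those of Klrc1 and 16.3% of those of Klrc2 also occurred in another gene. The same held for 27.2% in Klrb1b and 17.0% in Klrb1c, mostly through Gm44511, a gene annotated across both. Gm44511 itself has no value in the authors' deposited table. For Klrg1, Klrk1, Klrd1 and Klrb1f the share was 0%, and for Klre1 0.28%. No label or header states how such reads were handled, and the values of Klrb1b, Klrb1c, Klrc1 and Klrc2 are uncertain for this reason, the positive call of Klrb1b included. The longest run common to the coding sequences of Klrc1 and Klrc2 is 100 bases, and that common to Klrb1b and Klrb1c is 75 bases. They are shown because a read lying within them cannot be assigned to either gene.
Klrc1 and Klrc2: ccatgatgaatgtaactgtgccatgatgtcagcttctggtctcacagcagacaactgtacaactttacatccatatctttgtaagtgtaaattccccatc
Klrb1b and Klrb1c: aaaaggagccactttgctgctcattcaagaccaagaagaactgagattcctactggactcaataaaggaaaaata

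Of the 9 genes, 8 lie in the NK gene complex on chromosome 6, between the start of Klrb1a at 128609227 and the end of Klra2 at 131247362 (mm10). Klrg1 lies 6326 kb before it on the same chromosome. Of 121 genes annotated in this interval, 16 had an adjusted p, and 4 were called positive and 2 negative (37.5%, against 24.5% of all genes). The 16 include the members Klrb1b, Klrk1 and Klrb1f, which were chosen with their values known. Beside Klrb1b and Klrk1, the positive genes were Cd69, an activation marker of lymphocytes, and Klri2. Klri2 had a log2 fold change of 3.09 ± 0.72 (SE, adjusted p = 0.000228) at a mean of 29.2 normalized counts in the authors' deposited table. It had a wider error than Klrk1. The negative genes were Clec12a, an inhibitory lectin of myeloid cells, and the pseudogene BC064078, which was named after its values were seen.

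Of 20 further Klr genes in the table, 2 had an adjusted p, Klri2 and Klrg2. Klrg2 had -0.26 ± 0.76 (SE, adjusted p = 0.849) at a mean of 19.2 normalized counts in the authors' deposited table. The 14 Klra genes and pseudogenes of the complex, the family of the Ly49 receptors of NK cells, had means between 0.41 and 8.87 normalized counts, with the smallest unadjusted p at 0.0636.

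**Figure D4:**
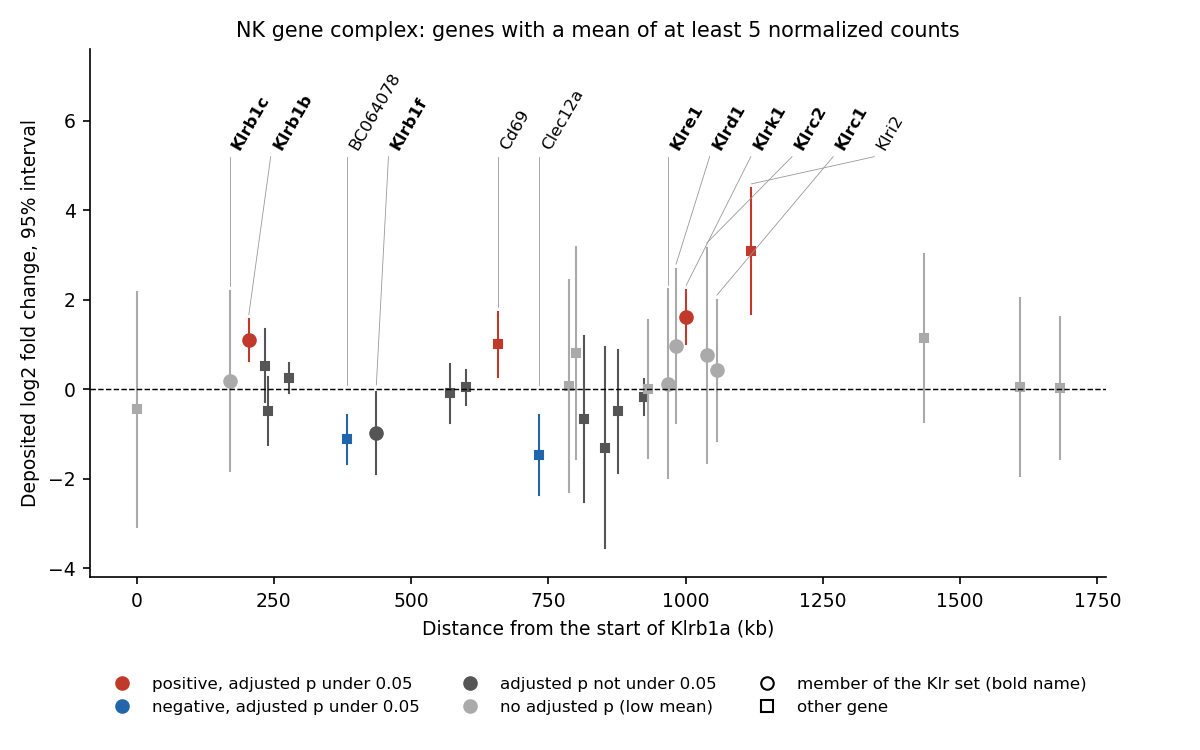
Deposited log2 fold change with 95% interval (vertical) against the distance in kb from the start of Klrb1a (horizontal), for genes of the complex with a mean of at least 5 normalized counts. Circles with bold names are members of the Klr set and squares other genes. The intervals of Klrb1b, Cd69, Klrk1 and Klri2 lie above 0, those of BC064078, Klrb1f and Clec12a lie below 0, and those of Klre1, Klrd1, Klrc1 and Klrc2 cross 0.

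Genes for ligands of the wider Klr family were measured in the same ILC2s, although the receptors also meet ligands on other cells. The list includes classical class I genes, known as ligands of the Ly49 receptors and not of the 9 members. Of 9 ligand genes with an adjusted p, 3 were positive and 0 negative, with a median log2 fold change of 0.30. The called share was 33.3%, against 24.5% of all genes. The positive genes were the classical class I genes H2-K1 (0.62 ± 0.15) and H2-D1 (0.42 ± 0.13) and the NKG2D ligand gene H60b (1.02 ± 0.37, adjusted p = 0.0294, SE throughout) in the authors' deposited table. H60b had a mean of 74.9 normalized counts, and its adjusted p over all genes with a p-value was 0.0761. H2-T23, which encodes Qa-1, the ligand of CD94 with NKG2A or NKG2C, had 0.03 ± 0.14 (SE) at a mean of 8924 normalized counts in the authors' deposited table. The KLRG1 ligand genes Cdh1 and Cdh2 had 0.20 ± 0.28 and 0.78 ± 0.44 (SE), and Clec2d, the ligand gene of Klrb1b, had -0.09 ± 0.34 in the authors' deposited table. None of these 4 passed.

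Adaptors and activating signalling genes were called in both directions. Of 22 genes with an adjusted p, 4 were positive and 4 negative, with a median of -0.01. That is 36.4% called, against 24.5% of all genes. Hcst, which encodes the NKG2D adaptor DAP10, had 0.66 ± 0.18 (SE, adjusted p = 0.00299) at a mean of 1737 normalized counts in the authors' deposited table, the same sign as Klrk1. Tyrobp, which encodes the adaptor DAP12, had -0.19 ± 0.71 (SE, adjusted p = 0.879) at a mean of 150.1 normalized counts in the authors' deposited table. Its SE was above the median of 0.23 over all tested genes. Fcer1g and Cd247, adaptors with activating tyrosine motifs, stood at -0.19 and -0.25 in the authors' deposited table, neither past the threshold.

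Downstream of the adaptors, the exchange factors Vav3 (1.66 ± 0.30) and Vav1 (0.41 ± 0.12) and the kinase subunit Pik3r1 (0.69 ± 0.17) were positive in the authors' deposited table. The phospholipase Plcg2 (-1.11 ± 0.17), the kinase Lck (-0.90 ± 0.17), the adaptor Grb2 (-0.93 ± 0.29) and Sh2d1a (-1.77 ± 0.58), the SAP adaptor of SLAM family receptors, were negative in the authors' deposited table. Lcp2, the scaffold SLP-76 and the most abundant of the list, had 0.24 ± 0.13 (SE, adjusted p = 0.185) in the authors' deposited table. The calls were split 4 to 4, and the list did not lean to one sign.

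**Figure D5:**
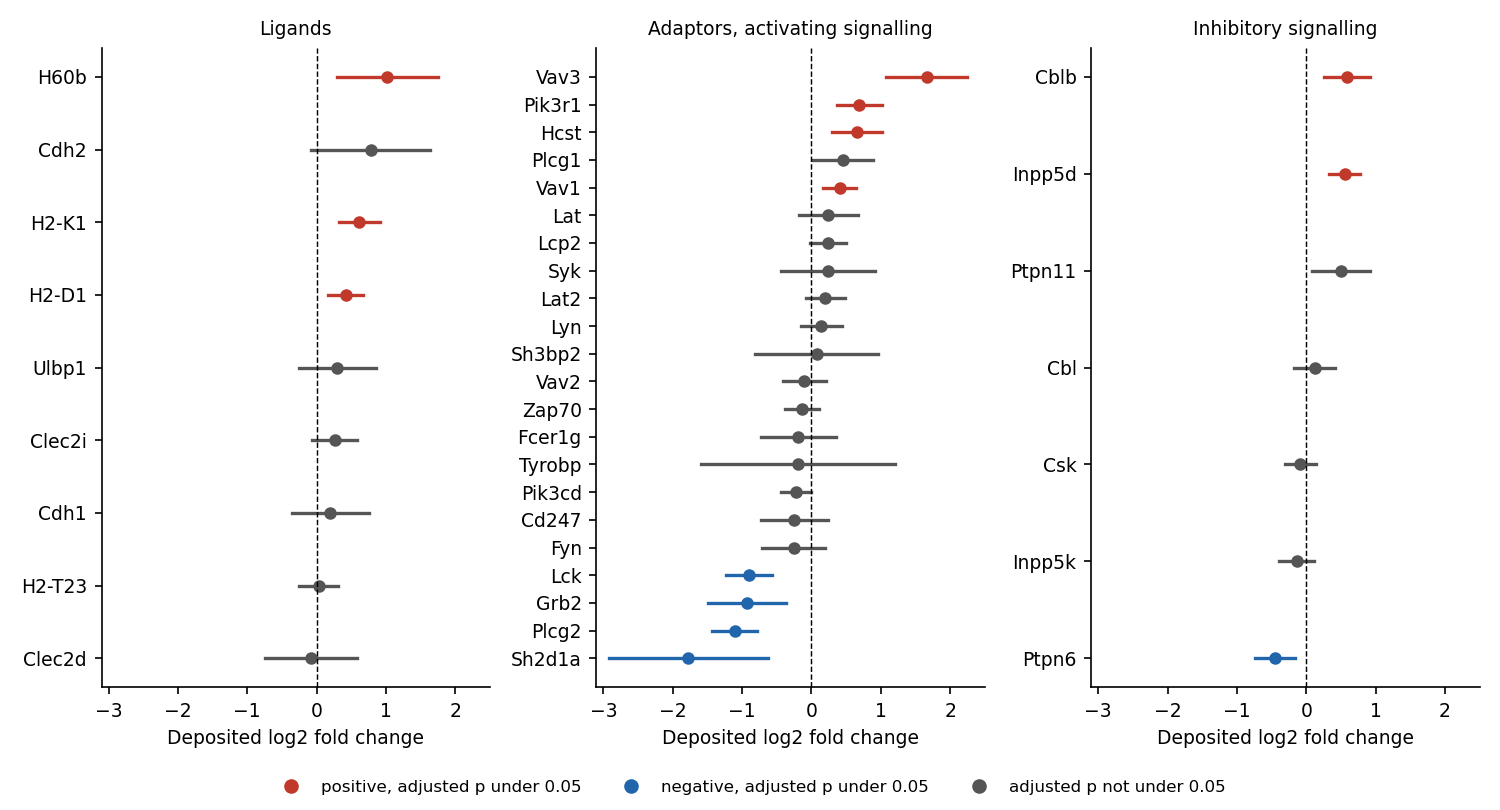
Deposited log2 fold changes with 95% intervals (horizontal) of ligand genes, adaptor and activating signalling genes, and inhibitory signalling genes with an adjusted p, one gene per line. H60b, H2-K1, H2-D1, Hcst, Vav1, Vav3, Pik3r1, Inpp5d and Cblb were positive, and Lck, Grb2, Plcg2, Sh2d1a and Ptpn6 negative.

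Inhibitory signalling genes numbered 7 with an adjusted p, of which 2 were positive and 1 negative (median 0.12). That is 42.9% called, against 24.5% of all genes. Inpp5d, which encodes the phosphatase SHIP-1, had 0.56 ± 0.11 (SE, adjusted p = 2.34e-05) at a mean of 8104 normalized counts in the authors' deposited table. Cblb, an E3 ubiquitin ligase that restrains receptor signalling, had 0.58 ± 0.17 (SE, adjusted p = 0.00457) in the authors' deposited table. Ptpn6, which encodes the phosphatase SHP-1 recruited by inhibitory tyrosine motifs, had -0.45 ± 0.15 (SE, adjusted p = 0.0125) in the authors' deposited table. After removal of the length trend its adjusted p was 0.12. Ptpn11, which encodes the related phosphatase SHP-2, had 0.50 ± 0.21 (SE, adjusted p = 0.0731) in the authors' deposited table.

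A further list held transcription factors known from the control of Klr genes or of the cells that carry them. Of 18 genes with an adjusted p, 6 were positive and 1 negative (median -0.16). That is 38.9% called, against 24.5% of all genes. The positive genes were Gata3 (0.63), Tox (0.77), Bach2 (1.62), Zbtb16 (0.78), Prdm1 (0.57) and Ets1 (0.31) in the authors' deposited table. Tcf7, which encodes TCF-1, had -1.004 ± 0.23 (SE, adjusted p = 0.0002) in the authors' deposited table. Ets1, Prdm1 and Zbtb16 did not keep their calls when p was adjusted over every gene with a p-value, nor did Ets1 after removal of the length trend. Tbx21 and Eomes, the T-box factors of NK cells, had means of 27.2 and 8.59 normalized counts in the authors' deposited table. Tbx21 had 0.04 ± 0.45 (SE, adjusted p = 0.965), and Eomes, without an adjusted p, 0.16 ± 0.95 in the authors' deposited table.

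Genes described in inflammatory ILC2s, which carry KLRG1, or in ILC2s that differ in KLRG1 were grouped in a mixed list of 15, Klrg1 included. Of these, 3 were positive and 8 negative (73.3% called, against 24.5% of all genes), with a median of -0.44. With Klrg1, the negative genes were Arg1 (-0.78), Batf (-0.62), Tph1 (-0.63), Il17a (-1.25), Tcf7 (-1.004), Thy1 (-1.98) and Cd2 (-1.06) in the authors' deposited table. The positive genes were Il17rb, the IL-25 receptor chain that marks inflammatory ILC2s (0.49 ± 0.10, SE), the costimulator Icos (0.54) and Ly6a, which encodes Sca-1 (0.69), in the authors' deposited table. After removal of the length trend, 3 of the 8 negative calls and 3 of the 3 positive calls were kept. The calls lost were those of Klrg1, Batf, Il17a, Cd2 and Thy1. Those of Il17a and Thy1 were also lost when p was adjusted over every gene with a p-value. Klrg1 and Il17rb, both known from inflammatory ILC2s, had opposite signs. The list shares 5 genes with the ILC2 markers given next.

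Because most Klr genes are markers of NK and T cells, markers of other cells were read beside them. The labels name the cells as ILC2s, and the defining genes Gata3, Rora and Il1rl1 ranked 22, 62 and 120 by mean in the authors' deposited table. Of 14 ILC2 markers, 6 were positive and 2 negative (57.1% called, against 24.5% of all genes), with a median of 0.43. With Gata3, Icos and Il17rb, the positive genes were the receptor gene Kit (1.53 ± 0.16), Hes1, a target of Notch signalling (1.10 ± 0.23), and the IL-9 receptor gene Il9r (0.51 ± 0.14, SE throughout) in the authors' deposited table. With Thy1, the negative gene was the cytokine gene Il13 (-1.06 ± 0.18, SE) in the authors' deposited table. The NK cell gene Ncr1 had a mean of 12.4 normalized counts and a log2 fold change of 0.52 ± 1.04 (SE, adjusted p = 0.772) in the authors' deposited table. With Tbx21 and Eomes, the defining NK genes therefore stood at means below 30 normalized counts without a call, although none was at 0. Of 14 NK and group 1 ILC markers with an adjusted p, 0 were positive and 7 negative (median -0.28). That is 7 of 14 called, against 24.5% of all genes called in either direction and 13.5% called negative. The 7 were Gzma (-3.94 ± 0.93), Gzmb (-2.15), Cd160 (-2.11), Nkg7 (-1.78), Cd244 (-1.27), Ccl5 (-1.19) and Il2rb (-0.53) in the authors' deposited table. Of the 14, 8 lay below 0 and 6 above 0, Ncr1 and Tbx21 among the 6, none of which was called. Klrk1, Klrb1b and Klri2 had the opposite sign to the 7 called genes and the same sign as the 6.

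Among 12 T cell markers with an adjusted p, 0 were positive and 2 negative (16.7% called, against 24.5% of all genes). The 2 were Trat1 at -2.65 ± 0.35 and Cd3g at -0.66 ± 0.19 (SE) in the authors' deposited table. Cd3e, Cd3d and Trac had means of 233.5, 98.5 and 255.3 normalized counts in the authors' deposited table, and none was called. Trbc2 was the most abundant T cell marker, at 4197 normalized counts, with -0.18 ± 0.14 (SE) in the authors' deposited table. Of 14 myeloid and B cell markers, 0 were positive and 2 negative, C1qa (-2.63) and Cd79b (-0.88), in the authors' deposited table. The called share was 14.3%, against 24.5% of all genes. Both lists are too short for a statement about how their shares differ from that of all genes. The most abundant myeloid or B cell marker, Lyz2, had -0.75 ± 0.80 (SE) in the authors' deposited table. The summed means were 15068 normalized counts for the NK and group 1 ILC list, 10599 for the T cell list and 7790 for the myeloid and B cell list, beside 179085 for the ILC2 list. Single genes made up much of the first 3 sums, with means of 9564 for Il2rb, 4197 for Trbc2 and 4469 for Lyz2. The sums therefore do not measure the amount of RNA from such cells. The range of these sums within each genotype was not analysed here, and their part in the Klr values was not tested.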

How the data were processed

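RNA sequencing of sorted lung ILC2s covered 6 samples, 3 KO and 3 WT. The labels' protocols name the SMART-Seq HT kit for cDNA and a TruePrep V2 kit for libraries. HISAT2, Cufflinks and the mm10 build are listed, without versions, per the submitters' processing notes. For the counting tool, the annotation and the use of strand, the sources used here name nothing. Per the file headers, the deposited values of each of 39527 genes are the authors' mean signal in normalized counts, their log2 fold change and its SE, the score of their test, and its p-value before and after adjustment. The column names are those of DESeq2 results tables, per the file headers. There are also 12 columns (6 names) of single-sample values whose names fit none of the labels, and these were left out. The depth per sample is therefore unknown here, and the authors' comparison was used in place of fits to single samples.

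The members and gene lists were chosen with earlier results of these data known. Named genes followed a rule. It took the 9 members, Stk11, further Klr genes with an adjusted p, in each list other than the ILC2 markers the called genes and the most abundant gene, and, in the marker lists of other cells, also the defining genes. BC064078, Tyrobp, Fcer1g, Cd247, H2-T23, Cdh1, Cdh2, Clec2d, Clec2i, Ptpn11 and the ILC2 markers Kit, Hes1, Il9r, Il13, Rora and Il1rl1 fall outside the rule and were named with their values known. The 95% intervals assume a normal distribution. Coordinates, exonic lengths and transcripts came from GENCODE M21 (39237 identifiers found), and promoters from RefSeq (GRCm38.p6). Alternatives were an adjusted p threshold of 0.01, Benjamini-Hochberg adjustment without the filter on the mean, genes with a mean of at least 100, centring on the most abundant 25% of genes, and removal of a lowess trend (fraction 0.3) on log2 exonic length. The adjustment and the trend removal were tested on simulated data. The tools were statsmodels 0.14.6, scipy 1.17.1, pandas 2.3.3, numpy 2.4.6 and matplotlib 3.10.9 under Python 3.11.15.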

Additional observations from a re-analysis of the deposited data

How the results depend on the processing

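Centring and removal of the length trend were the alternatives that could change the size of a value. Of the 8 values they gave for the 4 genes with an adjusted p, 0 reversed and 1 lost its call. It was that of Klrg1, whose log2 fold change was -0.15 (adjusted p = 0.405) after removal of the length trend, against adjusted p-values between 0.0012 and 0.00467 under the other alternatives, so that 0 of the 4 were then called negative. Restricted to genes with a mean of at least 100 normalized counts, 1 of the 2 members tested was called positive, since Klrk1 was not in the test. At a threshold of 0.01, 2363 genes were called, 1016 positive and 1347 negative, in place of 3668, 1644 and 2024. The 5 genes without an adjusted p had a value only in the adjustment without a filter, and their low means came with wide intervals. No paired analysis was possible because the columns of the authors' comparison carry no replicate numbers. For the same reason, leaving out replicates and other count tools were not run.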

Other observations

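Other lectin-like genes of the NK gene complex and its neighbourhood were measured as well. Of 11 with an adjusted p, 1 was positive and 1 negative, against 24.5% of all genes called, and the median log2 fold change was -0.56. Cd69, the most abundant, had a mean of 15139 normalized counts and a log2 fold change of 1.01 ± 0.37 (SE, adjusted p = 0.0296) in the authors' deposited table. Its adjusted p over all genes with a p-value was 0.0764. Clec12a had -1.48 ± 0.46 (SE, adjusted p = 0.00799) at a mean of 31.8 normalized counts in the authors' deposited table. Clec2i, a Clec2 gene whose product is a ligand of the Klrb1f receptor, had 0.26 ± 0.17 (SE, adjusted p = 0.274) at a mean of 613.7 normalized counts in the authors' deposited table.

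The pseudogene BC064078, which lies between Clec2g and Clec2f, had a log2 fold change of -1.12 ± 0.28 (SE, adjusted p = 0.000734) at a mean of 135.5 normalized counts in the authors' deposited table. It was named after its values were seen.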
